A study of Drosophila melanogaster with 4 samples.

Results

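The regions described here are the stretches of the X chromosome of Drosophila melanogaster that were listed as enriched for monomethylation of lysine 4 of histone H3 (H3K4me1). They were chosen by chromosome alone, as every region of X not named a depletion in each of 3 deposited lists. X held 1335 of the 7177 enriched regions of replicate 1, 1777 of 9903 in replicate 2, and 1733 of 9501 in a list covering both replicates, here named the combined list. Regions of the chromosome arms 2L, 3L and 3R in the same list served for comparison: 4431 in replicate 1, 6198 in replicate 2 and 5954 for the combined list.

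The mark was mapped by sequencing DNA bound to immunoprecipitated chromatin (ChIP-seq), starting from nuclei of wild-type larvae of the strain Oregon-R-modENCODE, at the 3rd instar, the last larval stage before the pupa. There were 2 ChIP samples, both made with the antibody ab8895 (new lot 2), and 2 input samples of chromatin without immunoprecipitation, each of them the background for the ChIP list that bears its number. The labels do not give the sex of the larvae, or say that the replicates came from separate cultures, so the spread between them may be technical. Whole larvae mix many tissues, and each list averages over all of them.

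H3K4me1 is placed in flies mainly by the methyltransferase Trithorax-related, and it marks enhancers and the flanks of active promoters, often across broad domains around developmental genes. Male flies carry a single X and females a pair, and in males a ribonucleoprotein complex, the dosage compensation complex, raises transcription of the X. In a mixture of the sexes, X therefore starts with fewer copies per cell than the autosomes, in the input as well as in the ChIP.

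A listed region carries a single score given by the authors, which is above 0 for enriched regions. The scale of the score is not stated and was taken to be log2 from its values. Scores were compared only within a list. Coordinates are on FlyBase release 5. With 2 replicates, the smallest two-sided p an exact permutation test can give is 0.5, so no comparison below could reach 0.05 by that test, and each is given as the values of both replicates with their mean and SD. The combined list shares its data with the replicates and is no further replicate.

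X regions scored higher than regions of 2L, 3L and 3R at every width and along nearly the whole chromosome. The median score of X regions was 0.76 in replicate 1 and 0.70 in replicate 2, against 0.66 and 0.59 on 2L, 3L and 3R together. In the combined list the medians were 0.52 and 0.45. The difference between X and the 3 arms was 0.11 ± 0.0014 (mean and SD, n = 2 replicates), and 0.0721 in the combined list. An SD from 2 nearly equal values is a poor guide to the precision of this difference. The part that the copy number of X in larvae of unstated sex has in this difference was not tested. The arms taken singly lay close to each other, with medians of 0.65 on 2L, 0.64 on 3L and 0.67 on 3R in replicate 1, and of 0.58, 0.58 and 0.61 in replicate 2.

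Scores rose with width, so X was also compared at like width. Regions of X, 2L, 3L and 3R were sorted into 20 equal groups by width within each list. In replicate 1 the median score of X regions was higher in 20 of 20 groups, by 0.02 to 0.14 with a mean of 0.09. The same held in 20 of 20 groups in replicate 2, by 0.04 to 0.13 with a mean of 0.08, and in 20 of 20 in the combined list, by 0.01 to 0.10 with a mean of 0.06. When each of the other arms was set against the remaining pair, the mean offset lay between -0.02 and 0.02 in every list. The shift on X reached the low as well as the high scores of a group: the 10th percentile was higher on X in 20 of 20 groups in all 3 lists, and the 90th percentile in 19, 19 and 20.

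Arm 2R, which is not among the 3 arms compared, stood between them and X. At like width the median score of X was above that of 2R in 18 of 20 groups in replicate 1, with a mean offset of 0.06, and in 18 of 20 in replicate 2, with a mean of 0.06. It was above in 16 of 20 groups of the combined list, with a mean of 0.03. Against 2L, 3L and 3R, 2R had mean offsets of 0.03, 0.03 and 0.04.

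Among narrow regions, those under 2 kb, the median score was 0.54 on X and 0.44 on the 3 arms in replicate 1, and 0.45 against 0.37 in replicate 2. Regions of 10 kb or wider had a median score of 1.14 on X in replicate 1, where 2L, 3L and 3R had 1.06, 1.04 and 1.07. In replicate 2 the median of these broad regions was 1.24 on X and 1.09, 1.13 and 1.15 on the 3 arms. X thus ranked first among the 4 arms at both ends of the width range. The lower end of the lists also differed: the lowest score on X was 0.28 in replicate 1, and 62 of the 4431 regions of the other arms (1.40%) lay below it, whereas in replicate 2 the lowest X score was 0.0028 and 2 regions of the other arms lay below.

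**Figure D1:**
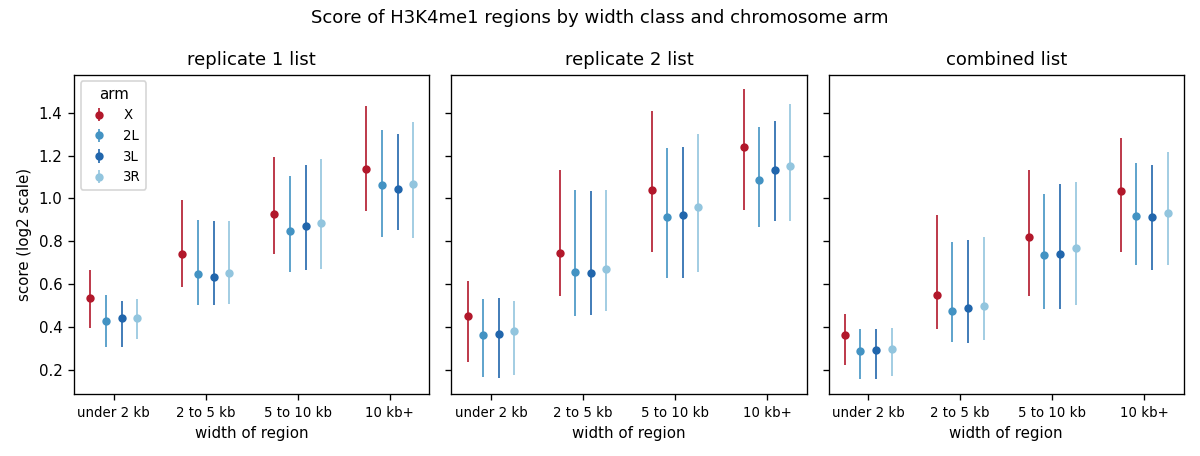
Deposited score (scale taken to be log2) of regions in 4 classes of width, for X, 2L, 3L and 3R in each list. Points are medians and lines run from the 10th to the 90th percentile of the regions, not of replicates. The X median is the highest of the 4 arms in every class and list, for example 0.54 under 2 kb and 1.14 at 10 kb or wider in replicate 1.

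Ranking each score within its width group gives a width-matched percentile, for which 50 is the middle of the 4 arms. The median percentile of X regions was 70.7 in replicate 1, 65.0 in replicate 2 and 65.8 for the combined list. On 2L, 3L and 3R together it was 44.1, 46.4 and 46.0. The difference was 22.6 ± 5.56 points (mean and SD, n = 2), several times its spread. At or above the 90th percentile stood 270 X regions in replicate 1 (20.2%, against 10.1% of all regions of the 4 arms), 330 in replicate 2 (18.6% against 10.0%) and 326 for the combined list (18.8% against 9.98%). On 2L, 3L and 3R together the shares were 7.00%, 7.57% and 7.41%. If the 4 arms are ranked by median percentile, 3R came second and the lowest place went to 2L or 3L, but those arms differed by less than 5 points in every list.

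The raised percentile was spread along the whole of X. Each of its 23 windows of 1 Mb had a median percentile above 50 in both replicates, between 55.0 and 77.6 in replicate 1 and between 52.3 and 76.3 in replicate 2. In the 74 windows of the other arms with at least 10 regions, the medians ran from 23.1 to 62.6 in replicate 1, and in 73 such windows of replicate 2 from 28.8 to 68.7. None of the former and 1 of the latter reached the median X window. In the combined list 22 of the 23 X windows were above 50. The ranges of X and of the other arms overlapped, since the lowest X windows lay among the higher windows elsewhere.

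**Figure D2:**
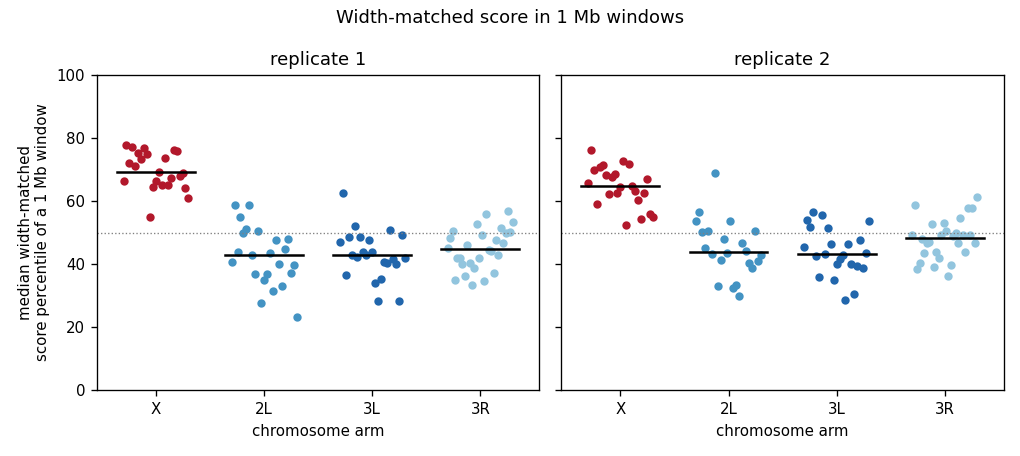
Median width-matched score percentile of regions in windows of 1 Mb, 1 point per window in order along the arm, for each arm in replicates 1 and 2; black lines are medians over windows and the dotted line is 50. All 23 X windows lie above 50, the lowest at 55.0 in replicate 1 and 52.3 in replicate 2.

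Which X windows stood highest was shared only in part. Across the 23 windows, the order by covered share was close to the same in both replicates (Spearman's rho 0.94, Pearson's r 0.96), while the order by median percentile had a rho of 0.24 and an r of 0.24. These are descriptions across neighbouring windows of the same libraries. Single regions gave a like picture: 539 X regions overlapped exactly 1 region of the other replicate that overlapped them alone, and across these the rho was 0.55 for score, 0.57 for width and 0.26 for percentile. Both members of the pair were above the 50th percentile in 271 of the 539 on X (50.3%) and in 24.9% of 2146 such pairs on the other arms. Both were at or above the 90th in 37 pairs on X (6.86%) and in 2.33% elsewhere.

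Coverage was moderately higher on X than on the 3 other arms pooled, but X did not stand apart from each of them. Regions covered 6.77 Mb of the 22.4 Mb of X in replicate 1 (30.2%) and 7.55 Mb in replicate 2 (33.7%), or 31.9% ± 2.47 (mean and SD, n = 2). The 3 arms together were covered to 28.1% and 30.8%. Taken singly, 2L had 25.8% ± 0.931, 3L 29.7% ± 1.63 and 3R 32.3% ± 2.96. Within each replicate 3R was covered slightly more than X, to 30.21% against 30.19% in replicate 1 and 34.4% against 33.7% in replicate 2. In the combined list the shares were 39.0% on X, 31.4% on 2L, 35.9% on 3L and 38.7% on 3R. The difference between X and the 3 arms was 2.47 ± 0.567 percentage points, and it was 1.08 with 2R among the arms, because 2R was covered to 32.9% and 38.7% in the replicates, more than X. It was 2.22 when the 3 Mb nearest the telomere were left out of each of the 4 arms, and 1.14 when they were left out of X alone. Outside these ends 3R was covered to 30.0% and 33.8% in the replicates, more than X with 29.2% and 32.0%.

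X regions were not wider by the median. Their median width was 3245 bases in replicate 1, below the 3304 of the other arms, and 2754 in replicate 2, above the 2503 of the other arms. The difference of 96 ± 219 bases was smaller than its spread and changed sign between the replicates. The upper end of the distribution was higher on X in both, with a 90th percentile of 10608 bases against 9829 in replicate 1 and 8672 against 7368 in replicate 2. 2R was higher still, with 11224 and 9111 bases.

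Broad domains, the form that H3K4me1 often takes around developmental genes, were somewhat denser on X than on 2L, 3L and 3R, but less dense than on 2R. Regions of 10 kb or wider numbered 148 on X in replicate 1 (11.1% of X regions, against 9.97% of the regions of the 4 arms), 130 in replicate 2 (7.32% against 5.77%) and 212 for the combined list (12.2% against 10.6%). These shares lay near those of the 4 arms. Per length there were 6.60 such regions per Mb of X in replicate 1, 5.80 in replicate 2 and 9.45 for the combined list, against 5.66, 4.37 and 7.99 on the other arms. The difference was 1.18 ± 0.341 per Mb (mean and SD, n = 2). 3R had 6.49 per Mb in replicate 1, close to X, and 2R exceeded X with 7.66, 7.19 and 10.8 per Mb in the 3 lists. The regions nearest the 10 kb limit were 9999 and 10083 bases wide in replicate 1, 9965 and 10001 in replicate 2, and 9993 and 10042 for the combined list.

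At 20 kb or wider, X held 32 regions in replicate 1, 22 in replicate 2 and 50 for the combined list, or 1.43, 0.981 and 2.23 per Mb. The other arms had 0.729, 0.543 and 1.25 per Mb. The highest of them, 3R, had 0.896, 0.753 and 1.51. 2R had 1.42, 1.04 and 2.74, about level with X in the replicates and above it in the combined list. The first 3 Mb of X held 10 of the 32, 12 of the 22 and 15 of the 50. Without the 3 Mb nearest the telomere, X held 22, 10 and 35 in 19.4 Mb, and 3R held 22, 18 and 37 in 24.9 Mb. There 3R was the denser in replicate 2. All 148 broad X regions of 10 kb or wider in replicate 1 overlapped a region of replicate 2, and all 130 of replicate 2 overlapped a region of replicate 1, as did every broad region of 2L, 3L and 3R. A broad X region was often broken up in the other list: 102 of the 148 in replicate 1 ran over 2 or more regions of replicate 2, and 86 of the 130 in replicate 2 over 2 or more of replicate 1. The like share on the other arms was not computed, so the breaking up cannot be called particular to X.

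Broad regions were denser near the end of X that carries the telomere than on the rest of X. In its first 3 Mb there were 8.67 regions of 10 kb or wider per Mb in replicate 1, 12.7 in replicate 2 and 13.0 for the combined list. On the rest of X the densities were 6.28, 4.74 and 8.91 per Mb. The telomere end was not the densest part of X in every list. Among 10 equal stretches of X counted from the telomere, the 6th was the densest in replicate 1. It had 10.7 per Mb, against 9.37 in the first. The first stretch was the densest in replicate 2, at 13.4 per Mb, and in the combined list, at 14.3. The 3 Mb nearest the telomere were also dense in broad regions on the other arms: 2L, 3L and 3R had 8.67, 8.00 and 7.00 per Mb in replicate 1, 9.67, 9.00 and 7.33 in replicate 2, and 13.3, 13.3 and 10.0 for the combined list. X led there in replicate 2, was level with 2L in replicate 1 and was below 2L and 3L in the combined list. Outside these ends X kept most of its lead over the 3 arms pooled. It had 6.28 against 5.36 per Mb in replicate 1, 4.74 against 3.79 in replicate 2 and 8.91 against 7.40 for the combined list. The mean difference was then 0.935 per Mb, a comparison added after seeing the data, and it was 0.493 with the first 3 Mb left out of X alone. By itself 3R had 6.38, 4.74 and 8.87 per Mb outside its telomere end, about level with X, so the lead was over 2L and 3L. Covered share followed the same course, with 36.4% of the first 3 Mb of X in replicate 1 and 44.7% in replicate 2, against 29.2% and 32.0% of the rest. The first Mb alone was covered to 26.0% and 28.3%, less than that rest.

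**Figure D3:**
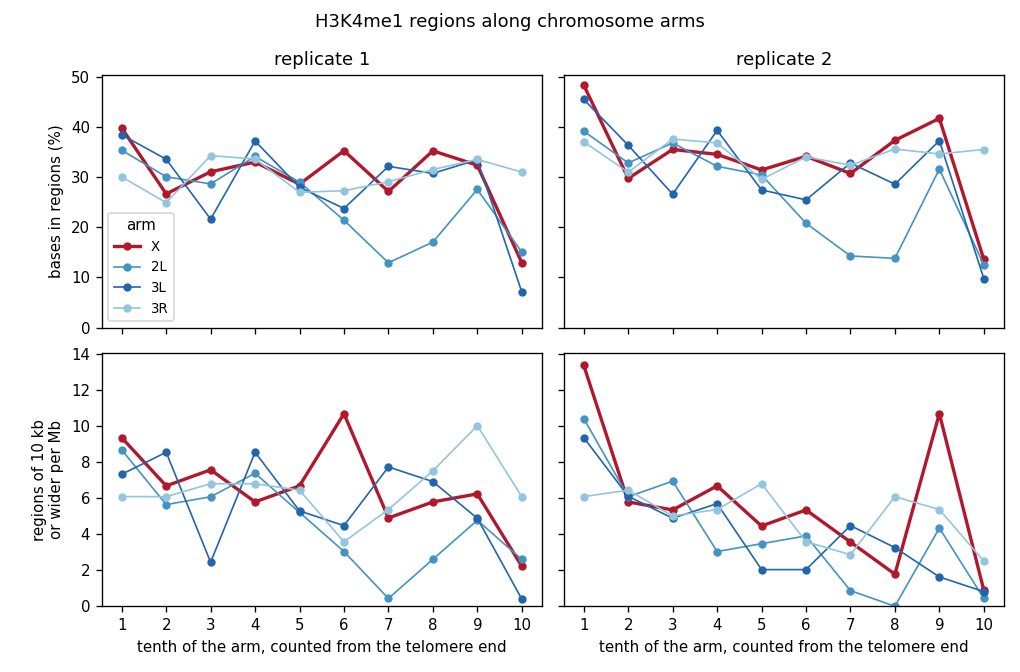
Share of bases in regions (upper panels, %) and number of regions of 10 kb or wider per Mb (lower panels) in 10 equal stretches of each arm counted from the telomere end, for X, 2L, 3L and 3R in replicates 1 and 2. X is high in the first stretch and low in the last, a course it shares with 2L and 3L.

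The opposite end of X, next to the centromere, was sparse. Its last 2 Mb were covered to 11.6% in replicate 1, 11.8% in replicate 2 and 14.1% for the combined list. Even there the median percentile was 62.5, 56.0 and 67.4. Away from both ends, the window from 6 to 7 Mb was covered to 39.6% and 44.5% in the replicates and that from 11 to 12 Mb to 41.0% and 40.9%, both above the share of X as a whole.

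By the median gap, neighbouring regions lay closer together on X than on 2L, 3L and 3R, but X did not hold more regions per Mb in every list. It had 59.5, 79.2 and 77.3 regions per Mb in replicate 1, replicate 2 and the combined list, against 58.7, 82.1 and 78.9 on the 3 arms. The median gap between regions was 2252 bases on X in replicate 1 and 1627 in replicate 2, against 3219 and 1853 on the other arms. The difference of -596.5 ± 524 bases had the same direction in both replicates but a spread nearly as large as itself, and in replicate 2 X was close to 3R, which had a median gap of 1664, and above 2R, which had 1485. Gaps under 500 bases made up 21.9% of X gaps in replicate 1, 23.4% in replicate 2 and 27.5% for the combined list, against 17.7%, 21.6% and 24.5% on the 3 arms and 16.9%, 25.1% and 28.1% on 2R. Gaps of 50 kb or longer numbered 75, 68 and 65 on X, or 3.34, 3.03 and 2.90 per Mb, with 3.23, 2.84 and 2.68 on the 3 arms. X therefore combined more short gaps with slightly more long ones, although 2L had as many long gaps per Mb in replicate 1, at 3.39.

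**Figure D4:**
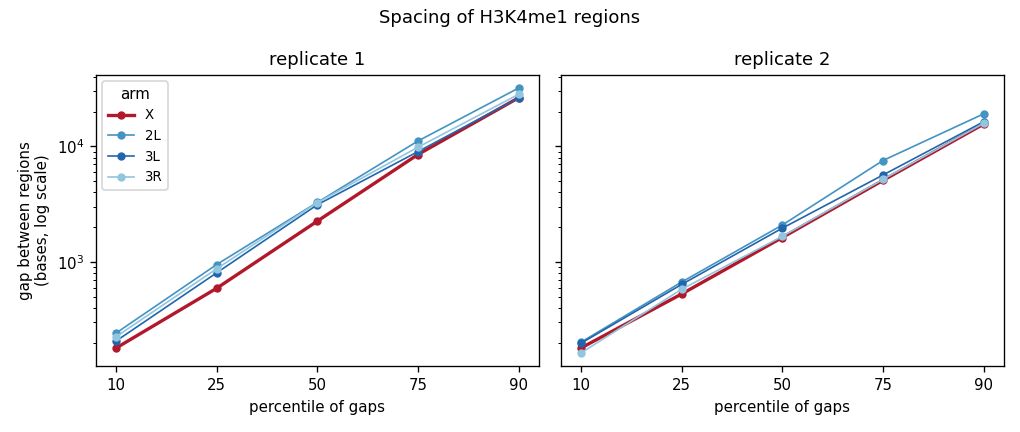
Length of gaps between neighbouring regions (vertical axis, bases, log scale) at 5 percentiles of all gaps of an arm (horizontal axis), for X, 2L, 3L and 3R in replicates 1 and 2. The X line is the lowest at the median, with 2252 bases in replicate 1 and 1627 in replicate 2, but nearly touches that of 3R in replicate 2.

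Regions less than 500 bases apart were also joined. Joined stretches of 20 kb or longer numbered 63 on X in replicate 1, 60 in replicate 2 and 110 for the combined list. Per Mb these were 2.81, 2.68 and 4.91, against 1.48, 1.34 and 2.90 on the other arms. Of these 3R was the nearest to X, with 1.86, 1.47 and 3.58 per Mb, while 2R had 2.13, 2.74 and 4.92, as many as X in replicate 2 and the combined list. The longest joined stretch of X was X:2010293-2095200 in the combined list, 84.9 kb made of 5 regions. In replicate 2 it was X:19493590-19573890, 80.3 kb of 6 regions, and in replicate 1 X:6145855-6195475, 49.6 kb of 5 regions, so the replicates did not share their longest stretch.

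The longest gaps were better shared than the longest stretches. In the combined list they were X:21500938-21846710 (345.8 kb), X:20558624-20898242 (339.6 kb) and X:4990478-5192321 (201.8 kb). The first pair lies 0.576 and 1.52 Mb from the centromere end of X, while the last lies 17.2 Mb from it. Replicate 1 had its longest gap at X:20534685-20898062 (363.4 kb) and replicate 2 at X:20535033-20900653 (365.6 kb), almost the same stretch.

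The highest scores fell on X out of proportion to its number of regions. The highest-scoring 1% of each list, taken over the 4 arms, comprised 58 regions in replicate 1, 80 in replicate 2 and 77 for the combined list. X held 24 of the 58, 43 of the 80 and 36 of the 77, or 41.4%, 53.8% and 46.8%, with 23.2%, 22.3% and 22.5% of the regions. As a share of X regions these were 1.80%, 2.42% and 2.08%, where 1.01%, 1.00% and 1.00% of all regions of the 4 arms were in that class. In replicate 2, 2L held 6, 3L held 8 and 3R held 23. The last score inside the class and the first outside it were 1.42493 and 1.42304 in replicate 1, 1.49775 and 1.49413 in replicate 2, and 1.30067 and 1.29758 for the combined list.

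Within X the first 3 Mb held more of these regions than its share of regions, nearly all between 1 and 3 Mb. They were not confined to that end: in replicate 1 the 6th of 10 equal stretches of X held 6, against 7 in the first. The first 3 Mb held 8 of the 24 in replicate 1 (33.3%), 15 of the 43 in replicate 2 (34.9%) and 12 of the 36 for the combined list (33.3%), with 13.8%, 11.9% and 13.0% of X regions. The difference between these shares was 21.3 ± 2.45 percentage points (mean and SD, n = 2). That SD does not measure the counting error of shares that rest on 24 and 43 X regions. The 3 Mb limit was also chosen with earlier results of these data known. The first Mb held 1, 0 and 0 of them, and the stretch from 1 to 3 Mb the other 7, 15 and 12. With the class drawn by width-matched percentile in place of score the difference was 9.02 points. With the class drawn at 5% in place of 1% the difference was 10.2 points, and with the first 2 Mb in place of the first 3 it was 12.5.

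In number, the telomere end of X exceeded that of the other arms. The 3 Mb nearest the telomere of 2L, 3L and 3R held 2, 3 and 3 regions of the highest-scoring 1% in replicate 1, 1, 1 and 3 in replicate 2, and 3, 3 and 6 for the combined list. As a share of each arm's own regions of that class they made up 2 of 6, 3 of 12 and 3 of 16 in replicate 1, or 33.3% on 2L against 33.3% on X. In replicate 2 they were 16.7%, 12.5% and 13.0%, against 34.9% on X. In the combined list 2L was above X, with 42.9% against 33.3%, so a telomere-end share above that of all 3 arms was seen in replicate 2 alone, and the arms' shares rest on 6 to 23 regions.

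**Figure D5:**
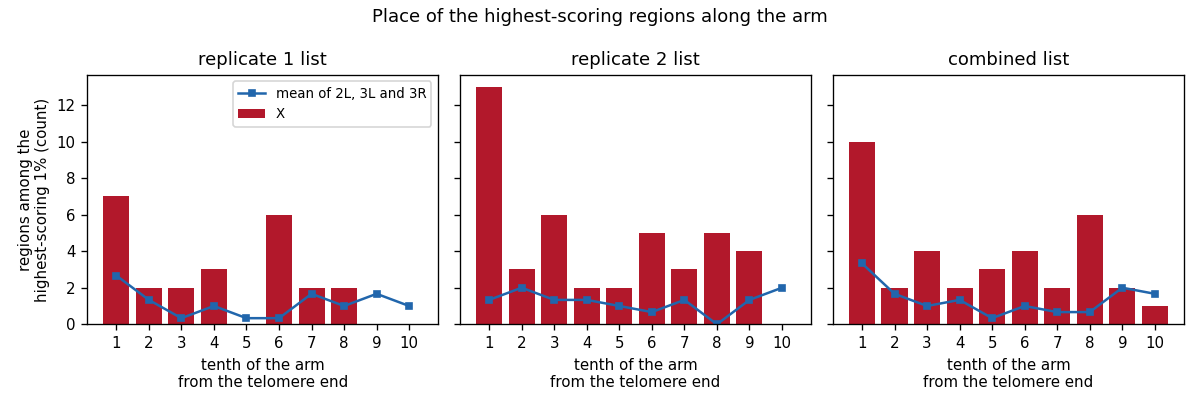
Number of regions among the highest-scoring 1% of the 4 arms in 10 equal stretches of an arm counted from the telomere end, for X (bars) and as the mean of 2L, 3L and 3R (line), in each list. The first stretch of X holds 7 such regions in replicate 1, 13 in replicate 2 and 10 for the combined list, the highest count of any stretch of X in each. In replicate 1 the 6th stretch is close behind with 6.

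The excess among the highest scores was smaller once the shift of all X scores was taken off. When every X score was lowered by the mean offset of its list, a step added after the data had been seen, X held 14 of the 58 in replicate 1 (24.1%), close to its 23.2% of regions. It held 32 of the 80 in replicate 2 (40.0%) and 29 of the 77 in the combined list (37.7%), still above its share of regions. Of these, 6, 13 and 12 lay in the first 3 Mb. The X regions at or above the 90th percentile then numbered 147, 196 and 193, in place of 270, 330 and 326. These are 11.01%, 11.03% and 11.14% of X regions, close to the share over the 4 arms. Lowering X scores can only reduce such counts. The offset came from groups of like width in the same lists, so a share near that of the 4 arms was largely fixed in advance.

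Median width-matched percentile was only slightly higher in the first 3 Mb than on the rest of X. The medians were 72.0 there and 70.3 on the rest of X in replicate 1, 71.3 and 63.5 in replicate 2, and 72.3 and 64.1 for the combined list. The difference of 4.75 ± 4.27 points was about as large as its spread, and among combined regions met by both replicates it was 15.5. The window from 1 to 2 Mb had the highest median percentile of any X window in each list, at 77.6, 76.3 and 82.4, whereas the first Mb had 66.4, 65.6 and 61.8.

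Identity of the highest scorers was only partly shared. All 24 X regions of the class in replicate 1 overlapped some region of replicate 2, but 8 of them (33.3%, against 24.1% over the 4 arms) overlapped one of the same class. All 43 of replicate 2 overlapped a region of replicate 1, and 10 (23.3% against 20.0%) overlapped one of the class. These shares rest on few regions.

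Of the 10 highest-scoring X regions, 6 lie between X:1451981 and X:2492815, within 1.04 Mb. The highest of these is X:2175006-2203906, 28.9 kb wide, with a score of 1.78 in the combined list. In replicate 1 it was covered to 98.0% by 2 regions, the higher with a score of 1.90, which was the highest X score of that list. In replicate 2 it was covered to 98.9% by 2 regions with scores of 1.68 and 1.71. X:1831750-1849772, 18023 bases wide, scored 1.77 and was met by a single region in each replicate, with scores of 1.64 and 1.89. Its neighbour X:1855907-1868434 scored 1.55, with a highest score of 1.74 in replicate 1 and 1.49 in replicate 2. The others of this cluster are X:1451981-1522942, X:1949959-1986940 and X:2482609-2492815, with scores of 1.58, 1.57 and 1.56. The highest X score of replicate 2, 2.13, was at X:2019976-2026904 in the same stretch, where replicate 1 had a region with a score of 1.47.

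A pair of regions far from this cluster also ranked among the 10. X:17681871-17686310 (4.44 kb) scored 1.66 in the combined list, 1.56 in replicate 1 and 1.93 in replicate 2. X:17660880-17664100 (3.22 kb), 17.8 kb away, scored 1.66, 1.40 and 1.92. Their width-matched percentiles were at least 99.8 in all 3 lists.

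The remaining 2 of the 10 had no counterpart in either replicate. X:10445349-10446349, 1001 bases wide, had the highest X score of the combined list at 3.18, and X:21966932-21967936, 1005 bases wide, had 1.86. No region of replicate 1 or replicate 2 overlapped them, and the narrowest X regions of the replicate lists were 1302 and 1301 bases wide. The other 8 overlapped regions of both replicates, which covered 84.9% to 98.0% of each in replicate 1 and 85.7% to 100% in replicate 2. High scores without a counterpart were not limited to X. In the highest-scoring 1% of the combined list, 3 regions of 3R and 1 of 3L also overlapped neither replicate, against 2 of X. The highest score of 2R in that list was 3.18, the same as on X.

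Among the 10 widest X regions of the combined list, which span 35.5 to 71.0 kb, 5 lie in the first 3 Mb. The widest is X:1451981-1522942 at 71.0 kb, which is also among the highest scorers. Replicate 1 covered 84.9% of it with 6 regions scoring 0.71 to 1.61, and replicate 2 covered 99.7% with 2 regions scoring 1.66 and 1.94. X:1747423-1794199 (46.8 kb, score 1.19) and X:1139623-1183176 (43.6 kb, score 1.37) follow at the same end. X:18135074-18180121 (45.0 kb, score 1.17) is the widest outside it, and was covered to 90.8% by 8 regions in replicate 1 and to 99.5% by 2 in replicate 2. Over all 10, replicate 1 covered 69.2% to 97.0% and replicate 2 83.6% to 99.8%, with 1 of the 10 met by a single region in replicate 1 and 2 in replicate 2.

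The widest single X region of replicate 1 was X:6869519-6909388 (39.9 kb, score 1.18), which replicate 2 covered to 85.4% with 6 regions. In replicate 2 the widest was X:2044365-2095275 (50.9 kb, score 1.25), which replicate 1 covered to 79.9% with 7 regions. Both were thus enriched in each replicate and differed in how they were divided.

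Replicates shared X regions about as often as regions of the other arms. Of the X regions of replicate 1, 1204 (90.2%, against 90.0% of the 4 arms) overlapped a region of replicate 2 by at least 1 base. Of those of replicate 2, 1320 (74.3% against 75.4%) overlapped one of replicate 1. The difference between X and the 3 arms was -0.646 ± 1.21 percentage points, within its spread. When 50% of each region had to overlap it was -6.58 points. The bases shared by both replicates were 61.7% of those in either on X and 62.7% on the other arms.

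Regions without a counterpart in the other replicate were narrow on X and on the other arms, and on X their rank for width differed between the lists. The 457 X regions of replicate 2 without a counterpart were 1805 bases wide by the median. Their median percentile was 71.8, above that of the 1320 with a counterpart, and on the other arms it was 48.0. The 131 such X regions of replicate 1 went the other way, with 67.5 against 70.7 for those with a counterpart. In the combined list, 1016 X regions (58.6%, against 60.4% of the 4 arms) overlapped both replicates and made up 84.6% of the X bases in regions. Another 145 (8.37%) overlapped replicate 1 alone, 415 (23.9%) replicate 2 alone and 157 (9.06%) neither, near the 8.03%, 22.6% and 8.48% of the other arms. The median percentile was 44.4 for the 145 and 68.7 for the 415, against 27.1 and 43.2 on the other arms. Those 157 were narrow, 1194 bases by the median, and stood at a median percentile of 79.6, against 43.9 for the 505 such regions of the other arms.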

How the data were processed

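H3K4me1 ChIP-seq was done on 2 ChIP and 2 input samples of larval nuclei. The submitters' processing notes name the aligner Bowtie 0.12.7. Of the region caller, its threshold and the making of the combined list, nothing is said in the labels or headers used here. The deposited lists give coordinates on FlyBase release 5, per the file headers, and a score that was taken to be log2 from its values: of 49 repeated scores per list, 67.3%, 79.6% and 34.7% differed from the most repeated one by a log2 ratio of whole numbers up to 60 (tolerance 1e-06). The lists hold no read counts, so depth and counting error are unknown. Each ChIP list was made against its own input, whose values were not used here.

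Depleted regions were left out. Arm lengths came from the file headers. Width-matched percentiles were ranks of the score within 20 groups of equal size by width, over X, 2L, 3L and 3R of a list. Windows of 1 Mb needed at least 10 regions. Main values are the mean and SD of replicates 1 and 2. Named regions are the 10 widest and 10 highest-scoring X regions of the combined list, the widest and the highest of each replicate list, and the 3 longest gaps. Other regions and gaps of the replicate lists are named as counterparts, and the longest joined stretches were picked after their values were seen. The members, limits and comparisons were chosen with earlier results of these data known. Alternatives were the combined list, combined regions met by both replicates, merging, the higher-scoring 50%, other limits of width, class and position, and 2R among the arms. Leaving the telomere ends out of every arm and the comparisons with 2R alone were added after seeing the data. No gene annotation was used, so no region is assigned to a gene. The offset measure was tested on simulated data. Python 3.11.15, NumPy 2.4.6, pandas 2.3.3, SciPy 1.17.1 and Matplotlib 3.10.9 were used.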

Additional observations from a re-analysis of the deposited data

Results flagged for a closer look

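Enriched regions were also listed on XHet, a separate sequence of X heterochromatin of 204.1 kb that entered no comparison above. Replicate 1 had 5, replicate 2 had 5 and the combined list had 7, with no expected count to set them against. These regions covered 7.34%, 5.94% and 8.02% of XHet, less than the 30.2%, 33.7% and 39.0% of X. Their scores were 0.52 to 0.70, 0.32 to 0.68 and 0.18 to 0.63. Regions with a score below 0 numbered 0, 1 and 3 on X.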

How the results depend on the processing

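Of 78 values recomputed with both replicates, 43 moved by no more than the SD of the replicates, 31 moved further without changing sign and 4 changed sign. Another 16 left out a replicate, which with 2 replicates moves a mean by less than their SD whatever the data, so they show only a change of sign, seen in 1. Leaving out a replicate gave a median width difference of -59 (replicate 1 alone) to 251 bases (replicate 2 alone), the first with the sign changed. Taking the higher-scoring 50% of each list, which selects on score by construction, gave differences of 5.51 points in coverage, -553 bases in median width (sign changed), 0.0218 in score, 9.82 in percentile, -2824 bases in gap, 35.0 points in the highest-scoring share and 2.81 points in overlap (sign changed). With combined regions met by both replicates, score gave 0.103, percentile 14.2, highest-scoring share 38.1 and percentile in the first 3 Mb 15.5. In the combined list, coverage gave 3.48 and score 0.0721. Merging gave 0.0965 for score and 26.1 for the highest-scoring share. With 2R among the arms, coverage gave 1.08, score 0.0931 and broad regions 0.656 per Mb. Without the 2 Mb at the centromere, coverage gave 3.41 and score 0.109. Without the first 3 Mb of X alone, coverage gave 1.14, score 0.0995, broad regions 0.493 and overlap 0.0914 (sign changed). With the 3 Mb nearest the telomere left out of every arm, added after seeing the data, score gave 0.107 and overlap 0.105 (sign changed), while coverage at 2.22 and broad regions at 0.935 moved within the SD. Broad limits of 5 and 20 kb gave 1.66 and 0.568 per Mb, and overlap of 50% of each region -6.58. The highest-scoring share gave 10.2 with 5%, 34.7 with 0.5%, 12.5 with the first 2 Mb, 17.3 with the first 5 Mb, 9.02 by percentile and 28.9 with X scores lowered by their offset, which was added after seeing the data. The cause of these moves was not tested. The overlap has no value with a replicate left out, since it needs both lists. Differences between X and the other arms were taken within each replicate. Between ChIP and input no paired analysis was possible because the inputs have no region list here. Read depth is unknown, so its part in any difference between the replicates was not tested.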
